A study of Mus musculus with 12 samples.

Results

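The cytosolic ribosomal protein genes were followed in RNA sequencing libraries made from endothelial cells of mouse bone marrow and lung. Members were taken by symbol: Rpl or Rps followed by a number and at most the letter a or x, plus Rplp0, Rplp1, Rplp2 and Rpsa. The rule found 76 of 55291 symbols, 46 for proteins of the large (60S) ribosomal subunit and 30 for the small (40S) subunit. It leaves out Rps3a1 and Fau, among others, which also encode ribosomal proteins and are given apart. All 76 passed the filter on low counts, among 18147 genes tested.

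Per the labels, every library came from VE-cadherin-positive (Vecad+) endothelial cells of VECadCre-tdTomato mice, a line in which Cre recombinase under the VE-cadherin promoter is combined with a red fluorescent reporter. Control mice had no transplant. The other mice carried transplanted acute myeloid leukaemia (AML) cells with the Trp53 alleles R172H and Δ, a point mutant and a deletion of the tumour suppressor. The 4 groups (marrow control, marrow AML, lung control, lung AML) had 3 libraries each. The labels do not say whether libraries of a group came from separate mice, so p-values measure the spread between these libraries, which may be technical. The sources used here do not give ages, the time after transplant or the method of sorting.

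The ribosome is built from ribosomal RNA and these proteins, so their genes are transcribed together at high levels in growing cells. Many of their mRNAs begin with a C followed by a run of pyrimidines (a 5′ TOP motif), through which mTOR signalling controls their translation. Several members have known roles outside the ribosome. Rpl5 and Rpl11, among others, bind Mdm2, the ubiquitin ligase of p53, when ribosome assembly is disturbed, and RPS19 is a gene mutated in Diamond-Blackfan anaemia, a failure of red cell production.

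Promoters of 8 members are shown because these genes either start with a TOP-type run or are the members that departed from the family in marrow. The windows run from 60 bases before to 15 bases after the RefSeq start (GRCm38.p6), 5′ to 3′. Capitals mark a pyrimidine run that begins with C at the start, or CCGGAAG, a core ETS-factor motif, on either strand. Rps21 has another RefSeq window, chr2:180257389-180257463, which carries neither mark and is not printed.
Rps6 (chr4:86857353-86857427, minus strand): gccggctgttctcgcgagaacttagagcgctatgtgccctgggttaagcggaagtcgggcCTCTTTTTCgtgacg
Rpl15 (chr14:18270972-18271046, minus strand): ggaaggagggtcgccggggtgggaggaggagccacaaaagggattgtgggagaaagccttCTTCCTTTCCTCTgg
Rplp2 (chr7:141447591-141447665, plus strand): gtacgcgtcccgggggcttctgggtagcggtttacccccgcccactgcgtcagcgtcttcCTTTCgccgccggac
Rps21 (chr2:180257319-180257393, plus strand): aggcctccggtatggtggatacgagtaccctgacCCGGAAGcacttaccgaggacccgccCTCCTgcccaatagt
Rps3 (chr7:99483695-99483769, minus strand): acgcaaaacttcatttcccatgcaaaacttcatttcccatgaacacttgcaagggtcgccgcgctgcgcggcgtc
Rpl11 (chr4:136053379-136053453, minus strand): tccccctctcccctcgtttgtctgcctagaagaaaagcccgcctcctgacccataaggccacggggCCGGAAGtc
Rps16 (chr7:28350629-28350703, plus strand): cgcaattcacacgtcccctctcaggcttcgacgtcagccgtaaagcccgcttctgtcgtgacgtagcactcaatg
Rps23 (chr13:90923062-90923136, plus strand): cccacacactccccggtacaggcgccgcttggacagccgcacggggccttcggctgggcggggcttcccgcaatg

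RefSeq promoter windows were available for 56 of the 76 members, 66 windows in all, and reached from 250 bases before to 50 bases after the start. CCGGAAG stood on one of the strands in 24 of the 66 windows (36.4%), against 8.86% of all 32851 windows of the same length. AAGATGGC, the core of the YY1 motif, was in 10.6% against 2.75%, and TATAAA, the TATA box, in 9.09% against 13.6%. A C followed by at least 4 pyrimidines began exactly at the annotated start in 13 member windows (19.7%), against 2.51% of all. A run of 8 pyrimidines beginning with C, sought near the start from 10 bases before it, was in 36.4% against 9.54%. The 4 motifs named by their letters were searched on both strands, and AAGATGGC can overlap the end of CCGGAAG by its first letters. A match describes letters and does not show a bound factor. Annotated starts can differ between catalogues: the GENCODE gene of Rps3 starts at base 99483738 of chromosome 7, inside the window printed above. Those of Rpl11 (base 136053428) and Rps6 (86857412), both on chromosome 4, also start inside their windows. So do Rps16 (28350652 of chromosome 7) and Rps21 (180257377 of chromosome 2). In each of these the GENCODE start lies upstream of the RefSeq start. The GENCODE genes of Rpl15 (base 18271391 of chromosome 14), Rplp2 (141447370 of chromosome 7) and Rps23 (90922958 of chromosome 13) start upstream of their printed windows.

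Library totals lay between 12.8 and 39.2 M counts. Pan-endothelial marker genes (20 of 20 with counts in every group) made up 0.0267 to 0.0390% of marrow control counts and 0.0285 to 0.0331% of marrow AML counts, and 0.371 to 1.26% and 0.0359 to 0.127% of lung control and lung AML counts. Erythroid genes made up 2.58 to 2.78% of counts in marrow controls and 0.143 to 0.650% in marrow AML. Lung epithelial genes made up 16.0 to 19.9% of lung control and 21.5 to 23.4% of lung AML counts. Endothelial markers were thus a small share of the counts under an endothelial label, and all results below are for the mixed RNA of each library. Fewer cells of a type and less RNA per cell cannot be told apart in such bulk libraries.

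Ribosomal protein mRNA was far more abundant in marrow than in lung libraries. The 76 genes took 2.84, 4.57 and 4.09% of all counts in marrow control libraries 1, 2 and 3, and 3.93, 2.88 and 2.06% in the marrow AML libraries. In lung controls they took 0.463, 0.634 and 0.328%, and in lung AML 0.592, 0.509 and 0.576%. Every marrow library was thus above every lung library, while control and AML libraries overlapped within each tissue. Group means were 3.84 ± 0.893% in marrow control, 2.96 ± 0.935% in marrow AML, 0.475 ± 0.153% in lung control and 0.559 ± 0.0442% in lung AML (SD, n = 3 each).

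**Figure D1:**
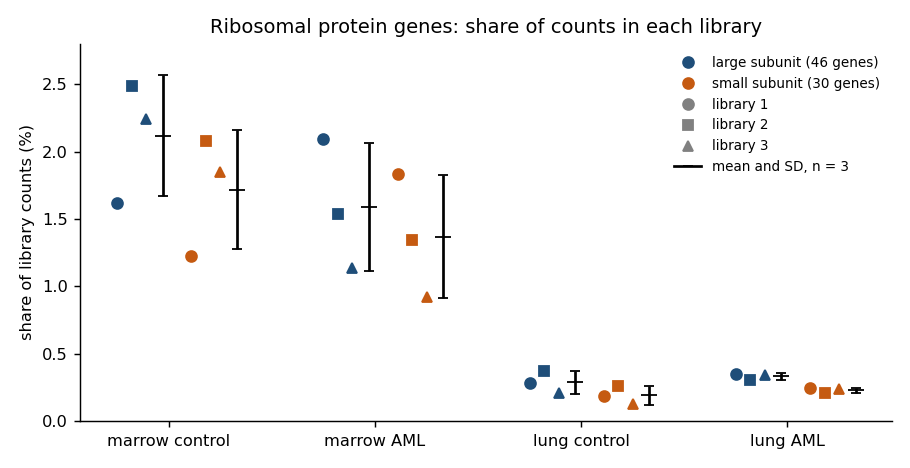
Share of each library's counts (percent, vertical axis) in the 46 large subunit (blue) and 30 small subunit (orange) genes, 1 symbol per library with the group mean and SD (n = 3). Large subunit shares lie between 1.14 and 2.49% in marrow and between 0.206 and 0.372% in lung, and control and AML libraries overlap within each tissue.

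The balance of the subunits separated the tissues in all libraries. Summed large subunit counts were 1.32, 1.20 and 1.21 times those of the small subunit in marrow controls and 1.14, 1.14 and 1.23 times in marrow AML. In lung the ratio was 1.53, 1.42 and 1.68 in controls and 1.43, 1.45 and 1.46 in AML. The lowest lung ratio was above the highest marrow ratio, and control and AML ratios overlapped in both tissues. No test was made on these sums. In marrow control, marrow AML and lung control, the library with the lowest ribosomal protein share had the highest ratio. In lung AML it did not. Whether the ratio goes with the share rather than the tissue was not tested.

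Between tissues without leukaemia, all 76 members were higher in marrow control than in lung control (edgeR quasi-likelihood test, Benjamini-Hochberg adjusted p under 0.05), where 29.4% of all tested genes were higher. The median log2 difference was 3.07, or 8.37-fold, against -0.20 over all genes. It was 2.96 for the large subunit and 3.24 for the small. The groups of 3 libraries did not overlap for any member, and 34.3% of all genes were higher without overlap. All 76 kept the call under every alternative scaling, filter, test and left-out library that was run.

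The size of the tissue difference varied about the median. Rpl12, a protein of the factor-binding stalk base, had 273, 536 and 516 CPM (counts scaled to library size by TMM) in marrow controls and 29.7, 36.2 and 23.6 in lung controls. Its log2 difference of 3.89 ± 0.34 (SE, adjusted p = 3.4e-06) was the largest. Rpsa, the laminin receptor homologue of the small subunit, followed at 3.87, then Rps18 at 3.78 and Rpl13a at 3.68. The smallest differences were those of Rps27 (1.80 ± 0.42, adjusted p = 0.00318) and Rpl21 (1.81). Rps27 had 160, 354 and 263 CPM in marrow and 63.7, 122 and 37.0 CPM in lung controls. Proliferation genes took 2.13 to 2.34% of counts in marrow controls and 0.0465 to 0.0620% in lung controls, and the erythroid and epithelial shares above also divide the tissues. Their part in the difference was not tested.

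In marrow, 32 of the 76 members were lower with AML and 0 were higher (edgeR quasi-likelihood test, adjusted p under 0.05), 19 of 46 large subunit and 13 of 30 small subunit genes. That is 42.1% of members, where 23.5% of all genes tested were lower and 20.4% higher. At an unadjusted p under 0.05, 0 members were higher and 42 lower, and DESeq2 and limma-voom also called 0 higher. The median log2 fold change was -0.76 (a ratio of 0.590) against -0.11 over all genes, -0.75 for the large and -0.82 for the small subunit, and 75 of 76 values were negative. The groups did not overlap for 26 members (34.2% of them, against 27.5% of all genes), all lower in AML.

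**Figure D2:**
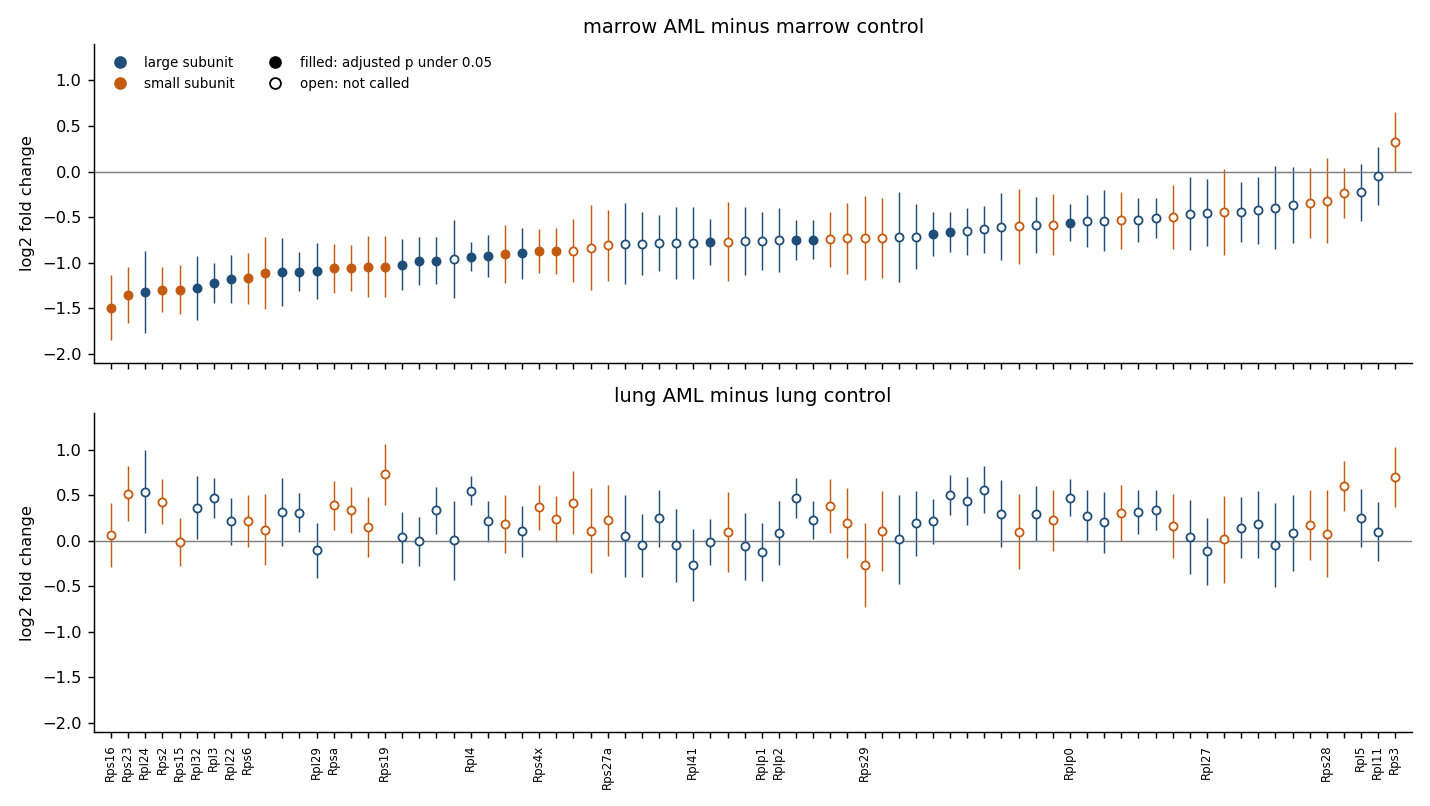
Fitted log2 fold changes with SE of the 76 members, AML minus control, in marrow (top) and lung (bottom), in the order of the marrow values (members described in the text are labelled), with large subunit genes in blue and small subunit genes in orange. Filled points mark the 32 members called in marrow, where values run from -1.49 to 0.33, and the lung values run from -0.26 to 0.73 with no filled point.

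The largest falls in marrow were in genes of both subunits. Rps16 had 238, 400 and 371 CPM in marrow controls and 163, 115 and 80.3 CPM in marrow AML, a log2 fold change of -1.49 ± 0.36 (adjusted p = 0.00634). Rps23, whose protein sits at the decoding centre, had 326, 582 and 510 CPM against 244, 169 and 141, a change of -1.36 ± 0.31 (adjusted p = 0.00429). In both genes every AML library lay below every control library. Rps2, a protein of the mRNA entry channel, had 796, 1171 and 708 CPM against 473, 325 and 293, a change of -1.30 ± 0.25 (adjusted p = 0.00172). Rps15 changed by -1.30 ± 0.27 and Rpl32 by -1.28 ± 0.35 (adjusted p = 0.00262 and 0.0124). Rpl24 changed by -1.32 ± 0.45 (adjusted p = 0.0338), at only 3.17 to 16.4 CPM in marrow, and its call was lost without marrow control library 2 or 3 or marrow AML library 1 (adjusted p 0.0512 to 0.144). Library totals (adjusted p = 0.0949), limma-voom (0.0707), no filter (0.107) and a filter of 5 CPM in 3 libraries (0.0565) also ended it. So did a model of only the libraries compared (0.0838) and the test against 1.5-fold (0.0848).

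Among members with known further roles, Rps6, the substrate of S6 kinase, fell by 1.17 ± 0.28 on the log2 scale (adjusted p = 0.00638), from 443, 717 and 794 CPM to 410, 249 and 207. Rpsa fell by 1.06 ± 0.27 (adjusted p = 0.00851), Rpl22 by 1.18 ± 0.26 (0.00389) and Rps4x, encoded on the X chromosome, by 0.87 ± 0.25 (0.0140). Rps19 fell by 1.04 ± 0.34 (adjusted p = 0.0263), with 565, 1047 and 1031 CPM in controls and 647, 352 and 285 in AML, so that 1 AML library lay above the lowest control. The call of Rps19 was lost without either of marrow control libraries 2 and 3 and either of marrow AML libraries 2 and 3 (adjusted p 0.0779 to 0.0866), and that of Rps4x without marrow control library 2 (0.0558). Rps19 also lost it with limma-voom (adjusted p = 0.0779) and a filter of 5 CPM in 3 libraries (0.0641). Rps19 and Rps4x both lost it with library totals (0.108 and 0.102) and with only the libraries compared. Against 1.5-fold, Rps19, Rps4x and Rpsa were not called (0.0971, 0.115 and 0.0513).

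For the stalk proteins, which recruit translation factors to the large subunit, calls were less certain, though Rplp1 and Rplp2 lay near the family median of -0.76. Rplp0 had 1811, 2629 and 2157 CPM in marrow controls and 1864, 1429 and 1177 in AML, a fall of 0.56 ± 0.21 (adjusted p = 0.0450) with overlapping groups. This call was lost without marrow control library 2 or 3 or marrow AML library 2 or 3 (adjusted p 0.0727 to 0.163). It was also lost with DESeq2 size factors (adjusted p = 0.0676), library totals (0.393), limma-voom (0.091) and a filter of 5 CPM in 3 libraries (0.205). The same held with only the libraries compared (0.226), without the robust option (0.0508), with the replicate block and against 1.5-fold. Rplp1 and Rplp2 had values of -0.76 and -0.75 that did not pass (adjusted p = 0.0744 and 0.108), and each passed without marrow AML library 1 (0.0341 and 0.0264). Rps27a, a fusion of ubiquitin to a small subunit protein, and Rpl41, the shortest of the proteins, had values of -0.81 and -0.78 (adjusted p = 0.113 and 0.133).

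A few members stood near 0 or above. Rps3, a protein of the mRNA entry site, was the 1 member with a positive value, 0.33 ± 0.33 (adjusted p = 0.446), with 1423, 2657 and 2401 CPM in marrow controls and 3481, 2810 and 1834 in AML. Rpl11 had -0.05 (adjusted p = 0.929) and Rpl5 -0.23 (0.583). Rps28 had a value of -0.32 and was not called. When libraries were scaled by their totals alone, Rpl11, Rpl5 and Rps28 had positive values, and the median of all genes moved from -0.11 to 0.16. Rpl11 was also just above 0 with DESeq2 size factors.

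In 3 of the 4 groups nearly all members ranked the libraries alike. Marrow AML library 1 was the highest of its group for 75 of 76 members and library 3 the lowest for 71. Marrow control library 2 was the highest for 67 and library 1 the lowest for 72. In marrow AML library 1, 50 of 76 members were above marrow control library 1 (median log2 difference 0.20), whereas in AML library 3, 0 of 76 were above control library 2 or 3. Erythroid genes took 0.650, 0.250 and 0.143% of counts in marrow AML libraries 1, 2 and 3 and proliferation genes 0.632, 0.447 and 0.302%, the same order as the ribosomal protein share. In marrow controls 1, 2 and 3 erythroid genes took 2.58, 2.66 and 2.78% and proliferation genes 2.34, 2.19 and 2.13%, so that proliferation genes were highest in the library where the ribosomal protein share was lowest. Pericyte and smooth muscle genes went the other way between groups, from 0.0253 to 0.0936% in marrow controls to 0.429 to 1.59% in marrow AML, and pan-leukocyte genes from 0.0692 to 0.0897% to 0.137 to 0.174%. All genes of these 4 lists had counts in both groups. The nuclear RNA Malat1 took 0.0405, 0.0352 and 0.0643% of counts in marrow controls and 0.124, 0.110 and 0.254% in marrow AML, highest in AML library 3, where the ribosomal protein share was lowest. Symbols with counts numbered 21008 to 22264 in marrow controls and 19338 to 19559 in marrow AML. Their part in the ribosomal protein result was not tested.

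The number of falls depended on single libraries and on the scale. It was 15 without marrow control library 2 and 47 without marrow AML library 1, 20 and 21 without marrow AML library 2 and 3, and 12 when libraries were scaled by their totals alone.

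The members that departed from the rest of the family were sought by setting each library's scale to its summed ribosomal protein counts. On that scale Rps3 and Rpl11 were higher and Rps16 and Rps23 lower in marrow AML, 4 of 76, where 26.3% of all genes were higher and 7.64% lower. Rps3 made up 4.94, 5.40 and 5.76% of the ribosomal protein counts in marrow controls and 10.7, 12.1 and 10.3% in marrow AML. The groups lay far apart, and the log2 change relative to the family was 1.04 ± 0.28 (adjusted p = 0.0135). The call was lost without marrow AML library 2 (0.97, adjusted p = 0.0532) and held in the other alternatives run. In lung, Rps3 made up 4.04, 4.39 and 4.004% in controls and 6.10, 4.71 and 5.49% in AML, again without overlap, with a relative log2 change of 0.39 that did not pass (adjusted p = 0.585). The GENCODE annotation places Rps3 on chr7:99477896-99483738 (GRCm38, minus strand), and 97.0% of the 50-base stretches of its transcript occur in no other annotated gene.

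Rpl11 made up 0.512, 0.556 and 0.584% of the ribosomal protein counts in marrow controls and 0.852, 0.840 and 0.963% in AML, a relative change of 0.68 ± 0.24 (adjusted p = 0.0447). Rps16 made up 0.827, 0.813 and 0.891% against 0.502, 0.497 and 0.450%, a change of -0.80 ± 0.25 (adjusted p = 0.0268). Rps23 made up 1.13, 1.18 and 1.22% against 0.749, 0.730 and 0.789%, a change of -0.64 ± 0.23 (adjusted p = 0.0496). None of the 3 overlapped between the groups. Their calls depended on single libraries. Rpl11 and Rps23 lost theirs whichever marrow library was left out (adjusted p 0.0568 to 0.145). Rps16 lost its call without marrow control library 2 or 3 or marrow AML library 2 or 3 (0.0607 to 0.0771). It kept the call without library 1 of either group. In lung no member passed the test of departure from the family (edgeR, smallest adjusted p = 0.414), where 0.27% of all genes were higher and 1.42% lower.

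**Figure D3:**
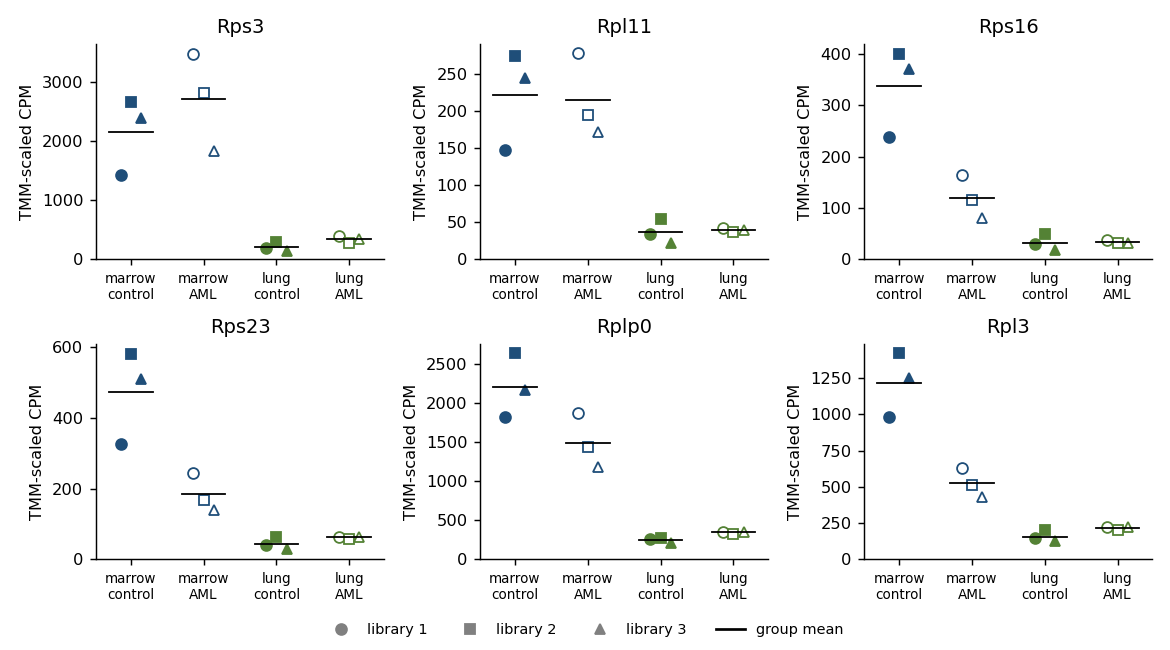
TMM-scaled CPM of 6 members in each of the 12 libraries, marrow in blue and lung in green, with open symbols for AML. In marrow, Rps16, Rps23 and Rpl3 lie lower in every AML library than in every control, and Rps3, Rpl11 and Rplp0 overlap.

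In lung, 0 of 76 members were called with AML (edgeR quasi-likelihood test), where 2.33% of all genes were called in either direction. At an unadjusted p under 0.05, 3 members were higher and 0 lower. DESeq2 called 1 member and limma-voom 3, all higher. The median log2 fold change was 0.21 against 0.00 over all genes, 64 values were positive and 12 negative. For 9 members every AML library lay above every control, where 18.2% of all genes did.

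Rps19 had the largest value in lung, with 158, 209 and 116 CPM in controls and 248, 285 and 269 in AML (0.73 ± 0.33, adjusted p = 0.305). Rpl4, a large subunit protein lining the exit tunnel, had 270, 296 and 275 CPM against 448, 376 and 405 (0.55 ± 0.16, adjusted p = 0.0990), and DESeq2 and limma-voom called it (adjusted p = 0.00168 and 0.00818). Rplp0 had 260, 269 and 210 CPM against 353, 326 and 348 (0.47 ± 0.21, adjusted p = 0.275). In these 3 genes the groups did not overlap. The lowest values were those of Rps29 and Rpl41 (both -0.26), Rplp1 (-0.13), Rpl27 and Rpl29 (both -0.11).

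The direction in lung rested on the control libraries. In lung AML the members did not rank the libraries alike, with libraries 1, 2 and 3 the highest for 36, 8 and 32 members. Lung control library 2 was the highest of its group for 76 of 76 members and library 3 the lowest for 74. All 3 lung AML libraries were above control library 3 for 76 of 76 members, but above control library 2 for 23, 13 and 21. Without control library 3 the median was -0.03, and without control library 2 it was 0.54. Pan-endothelial genes took 0.371, 1.26 and 0.502% of counts in lung controls 1, 2 and 3, and mitochondrially encoded genes 0.327, 0.769 and 0.282%, both highest in library 2. Whether these move the ribosomal protein values was not tested.

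The change with AML differed between the tissues for 24 of 76 members (edgeR interaction, adjusted p under 0.05), all more negative in marrow, where 16.1% of all genes were more negative there. They were 14 large and 10 small subunit genes, and the median difference of the effects was -0.94 against -0.09 over all genes. Rpl3, a protein of the peptidyl transferase centre, had 985, 1422 and 1250 CPM in marrow controls and 631, 509 and 430 in marrow AML. In lung it had 144, 199 and 125 CPM in controls and 224, 199 and 224 in AML. Its effects of -1.22 ± 0.22 in marrow and 0.47 ± 0.22 in lung differed by -1.69 (adjusted p = 0.00225). The number of members was 13, 14, 15 and 15 without lung AML library 2, marrow control library 2, lung control library 3 and lung AML library 3 in turn. It was 37 without marrow AML library 1, 39 without lung control library 2 and 6 with library totals as the scale.

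Transcript length went with the values in some comparisons. Members were placed by the median length of their annotated protein-coding transcripts in 25 short (345 to 630 bases), 25 middle (644 to 914) and 26 long (935.5 to 5130). In marrow AML the median log2 change was -0.75, -0.75 and -0.78 in this order, with 3, 13 and 16 members called lower. The short members had the same median and fewer calls. Their libraries were also more spread out within groups, with median deviations from the group mean of -0.61 in marrow control library 1 and 0.58 in marrow AML library 1, against -0.43 and 0.41 in long members. In lung AML the median changes were 0.09, 0.27 and 0.27, and the rank correlation of change and length across the 76 genes was 0.496, against -0.166 in marrow. Genes share their libraries and are not replicates, so these correlations are descriptions. Other genes shorter than 1000 bases deviated by a median of -0.17 in marrow control library 1, 0.16 in marrow AML library 1 and -0.21 in lung control library 3, where the ribosomal protein genes deviated by -0.49, 0.46 and -0.53. They moved little in marrow control library 2 (0.05, against 0.35 for the ribosomal protein genes), marrow AML library 3 (-0.07 against -0.44) and lung control library 2 (0.05 against 0.54). In lung AML libraries 2 and 3 the signs were opposite (0.06 against -0.08, and -0.07 against 0.03).

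**Figure D4:**
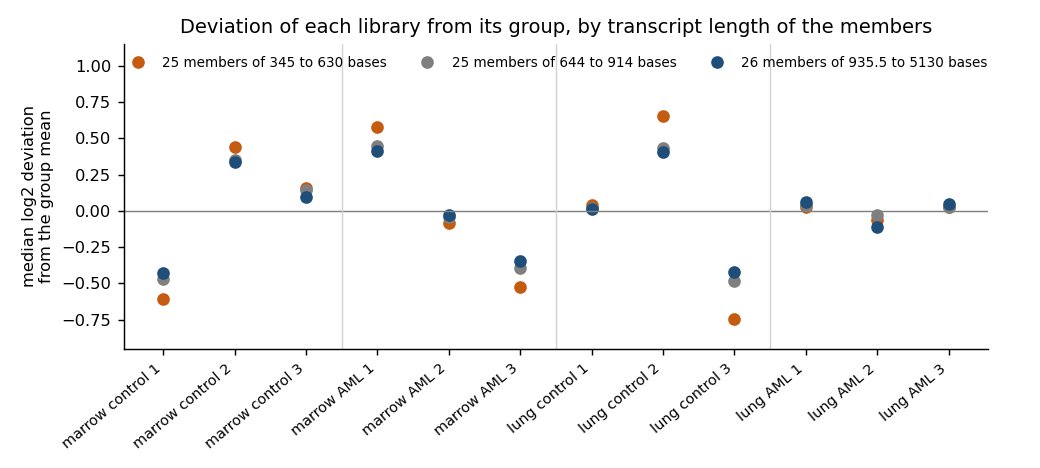
Median log2 deviation of each of the 12 libraries from its group mean, for short (orange), middle (grey) and long (blue) members by transcript length. Short members deviate most in the libraries that stand apart, for example by -0.75 in lung control library 3 against -0.42 for long members.

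Levels of different members were compared per transcript length. In marrow controls Rps3 had 2269 ± 684 CPM per kb (SD, n = 3) and Rps14 1855 ± 598, and the median member had 569. The spread between libraries is larger than the gap between them. The lowest were Rpl24 at 17.5 ± 5.9, Rpl23a at 34.1 ± 9.5 and Rps10 at 46.8 ± 14.4. In marrow AML Rps3 led with 2845 ± 870 CPM per kb and the median was 347. In lung the median was 63.4 in controls, led by Rps14 at 286 ± 111, and 77.4 in AML, led by Rps3 at 355. Which member led depended on the length used: with the transcript of the longest coding sequence it was Rps14 in lung AML. The order was much alike in both tissues, with a rank correlation of 0.920 over the 76 genes between marrow and lung controls.

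**Figure D5:**
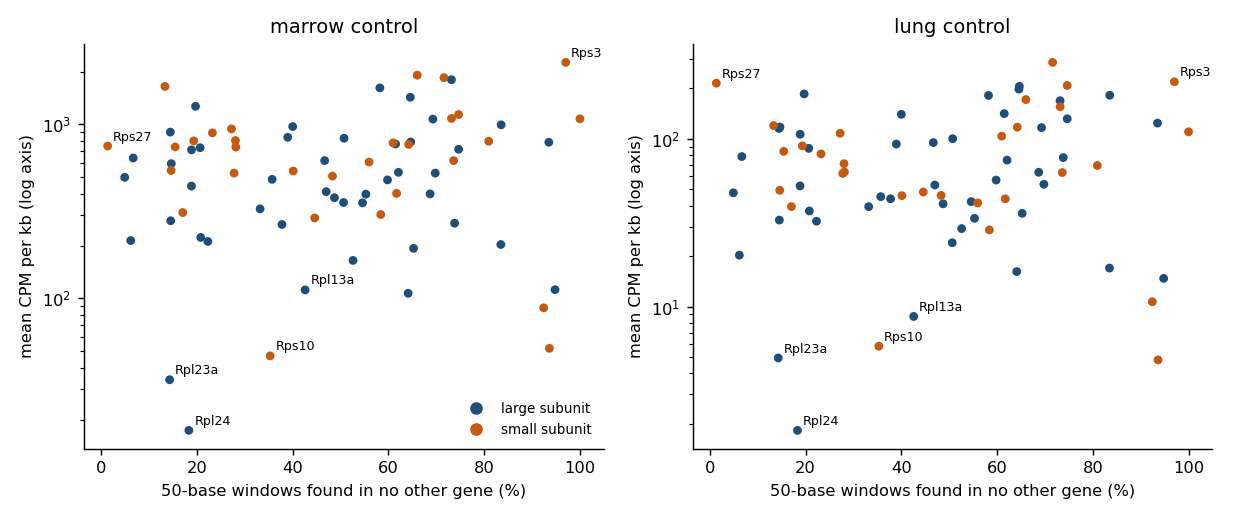
Level per transcript length (CPM per kb, log axis, mean of 3 libraries) of each member in marrow control and lung control against the percent of its 50-base stretches found in no other annotated gene. The levels show little relation to that percent (rank correlations 0.136 and 0.163), and Rpl24 is the lowest in both tissues.

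Ribosomal protein genes have many processed pseudogenes, so part of their reads cannot be placed at 1 gene. A median of 49.7% of a member's 50-base stretches was unique among annotated transcripts, from 1.35% in Rps27 upward. The share was under 20% for 17 members and at least 80% for 9. A stretch was shared with at least 1 annotated pseudogene for 74 of 76 members, with a median of 8.5 pseudogenes and at most 121, for Rpl7a. Counts listed at the sharing pseudogenes came to over 10% of the member's own for 4 genes, Rpl24 (69.7%), Rpl23a (44.6%), Rpl13a (33.1%) and Rps10 (23.3%). Of these, Rpl24, Rpl23a and Rps10 were also the lowest per length in marrow controls, so their levels are uncertain. All 4 also share stretches with annotated genes not classed as pseudogenes, such as RPS10-NUDT3 for Rps10 and Gm28037 for Rpl24. Counts at such genes were not set against those of the members. Of the 4 members that departed from the family in marrow, the unique share was 97.0% in Rps3, 58.4% in Rps16, 48.3% in Rps23 and 37.8% in Rpl11.

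The ribosomal protein genes outside the symbol rule had negative values in marrow AML too. Rps3a1 was at 555 ± 148 CPM against 1011 ± 238 in controls and fell by 0.86 ± 0.28 on the log2 scale (adjusted p = 0.0273), and Fau, a fusion of a ubiquitin-like protein to a small subunit protein, had -0.65 (0.0996). In lung Rps3a1 had 0.53 (adjusted p = 0.399). Of 8 paralogs tested, Rpl22l1, the paralog of Rpl22, fell in marrow by 0.92 ± 0.30 (adjusted p = 0.0296), and Rpl22 itself by 1.18. Rps27l, a p53 target, had -0.89 (0.0528). Rps4l had -1.19 ± 0.30 in lung (adjusted p = 0.0672).

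Translation factor genes fell in marrow AML too. Of 8 elongation factor genes 6 were lower (median -0.93), among them Eef2, which moves the ribosome along the mRNA, at 463 ± 76.8 CPM against 933 ± 124 (-1.01 ± 0.17, adjusted p = 0.000706). Of 30 initiation factor genes 20 were lower and 1 higher (median -0.71). Eif4e, the cap-binding protein, was at 104 ± 13.3 CPM against 249 ± 32.4 (-1.26 ± 0.15, adjusted p = 0.000106), Eif2s1 changed by -1.43 and Eif3k by -1.53, and the 1 that rose was Eif1a (0.80, adjusted p = 0.00120). Among 14 quality control and stress genes, 8 were lower (median -0.80). The strongest was Eif2ak1, the haem-regulated eIF2α kinase of red cell precursors, at 66.3 ± 18.6 CPM against 280 ± 46.7 (-2.08 ± 0.21, adjusted p = 3.9e-05). Of 15 regulators of ribosomal protein mRNA translation 8 were lower (median -0.63).

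Ribosome assembly factors were mixed, with 11 of 67 lower and 5 higher in marrow (median -0.09, that of all genes being -0.11). Riok2, a kinase of late 40S maturation, rose from 43.9 ± 5.80 to 222 ± 37.8 CPM (2.34 ± 0.19, adjusted p = 1.9e-05) and Rrp9 rose by 1.46. Gnl2 and Noc4l fell by 1.09 and 0.93. Of 20 RNA polymerase I genes, which serve ribosomal RNA synthesis, 6 were lower and 2 higher (median -0.23), with Taf1a at 1.88 and Ubtf at -1.01. Mitochondrial ribosomal proteins, a list added after the data were seen, were lower for 37 of 78 and higher for 1 (median -0.56). These shares stand beside 23.5% of all genes lower and 20.4% higher.

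In lung 3 of 67 assembly factors rose with AML, where 2.33% of all genes were called in either direction: Nop56 (0.83 ± 0.16, adjusted p = 0.0258), Gnl3 (0.97, 0.0303) and Nmd3 (0.62, 0.0442). Between control tissues, marrow was higher for 55 of 67 assembly factors, 26 of 30 initiation factors, 7 of 8 elongation factors and 72 of 78 mitochondrial ribosomal proteins, where 29.4% of all genes were higher.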

How the data were processed

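Per the labels' protocols, total RNA was extracted with the RNeasy Plus Micro kit and libraries were made with SMART-seq v4 and ThruPLEX kits for very low input. The submitters' processing notes name bcl2fastq, STAR and the build mm10. Versions, counting program, annotation and the treatment of reads mapping to several places are not stated in those sources. The authors deposited raw counts, 1 whole number per gene symbol and library, made without regard to strand and not normalised, so a gene's reads cannot be separated from those of an antisense or overlapping gene.

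Counts were tested in R 4.3.3 with edgeR 4.0.16 (robust quasi-likelihood fit, 12 libraries in 1 model of 4 groups, 8 residual degrees of freedom, TMM scaling, minimum count 10 and minimum total 15). P-values were adjusted over all 18147 genes kept (Benjamini-Hochberg) and calls made under 0.05. The procedure was tested on simulated data for the marrow AML comparison alone. All simulated libraries shared the marrow control means and 1 common spread, apart from genes changed in marrow AML. Tissue differences, the interaction and the family scale were not simulated. CPM are TMM-scaled counts, and log2 fold changes carry the SE of the fit. The 4 comparisons were AML against control in each tissue, the difference of these effects, and marrow against lung controls. For departures from the family, the library scale was the summed count of the 76 members. All 76 members passed the filter, and the effect of depth on their values was not tested. Lengths, positions and shared 50-base stretches came from GENCODE vM21 (GRCm38) and promoters from RefSeq (GRCm38.p6).

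Alternatives were DESeq2 1.42.0 (size factors and Wald test), limma 3.58.1 (voom with quality weights), library totals, TMM factors without members or marker genes, other filters, no robust option, a test against 1.5-fold, the replicate number as a block, a model of the compared libraries alone, and each library left out. For departures, pools of 1 subunit and median-ratio factors were tried. The shares had other denominators and members, and levels per length had other lengths. Members named are the 6 largest rises and 6 largest falls of each comparison, those called relative to the family, the 3 highest and 3 lowest per length, and Rplp0, Rplp1, Rplp2, Rpsa, Rps6, Rps19, Rpl5, Rpl11, Rpl22, Rpl41, Rps27a and Rps4x. Up to 4 genes with the smallest p were taken from each other list, and Eif1a, Rpl15 and Rps21 were chosen after their values or sequences were seen. The members and lists were chosen with earlier results of these data known. Some genes that the rule or a list took are not reported here. Genes most like the family across libraries are not given, since the libraries form 2 separate tissue clusters.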

Additional observations from a re-analysis of the deposited data

Results flagged for a closer look

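The change with AML differed between marrow and lung for 24 members, by the interaction term of the edgeR quasi-likelihood fit, and each difference was negative (marrow below lung). Among members named, the differences of the log2 changes were -1.87 for Rps23 (adjusted p = 0.00742), -1.86 for Rpl24 (0.0466), -1.77 for Rps19 (0.0157) and -1.72 for Rps2 (0.00406). They were -1.69 for Rpl3 (0.00225), -1.64 for Rpl32 (0.0267), -1.45 for Rpsa (0.0147) and -1.39 for both Rpl22 (0.0149) and Rps6 (0.0219). For Rps4x the difference was -1.24 (0.0194) and for Rplp0 -1.04 (0.0197). Rpl24 lost the call when any of 9 libraries was left out singly, Rpl32 with any of 8, Rps6 with any of 5 and Rplp0 without lung AML library 2, while Rps23, Rps19, Rps2, Rpl3, Rpsa, Rpl22 and Rps4x kept it without each of the 12 in turn. With library totals Rpsa (adjusted p = 0.0618), Rpl22 (0.0643), Rps6 (0.0902), Rps4x (0.101), Rpl24, Rpl32 and Rplp0 lost it. The last 3, Rps6 and Rps4x also lost it against 1.5-fold. Rps23, Rps19, Rps2 and Rpl3 kept it in every alternative run.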

How the results depend on the processing

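All 76 members stayed higher in marrow than in lung controls in every alternative run. The number lower in marrow AML, 32, became 12 with library totals, 21 with limma-voom, 18 with a filter of 5 CPM in 3 libraries, 11 against 1.5-fold and 17 with only the libraries compared, and 15 to 47 with 1 library left out. The 24 members of the interaction became 6 with library totals and 10 against 1.5-fold, and 13 to 39 with 1 library left out. The lung count of 0 became 1 with DESeq2 and 3 with limma-voom. The 4 departures from the family in marrow became 2 with the small subunit as pool, 1 with median-ratio factors and 1 with the replicate block, and 0 to 2 with 1 library left out. Fewer libraries, fewer genes tested and a stricter null are part of some of these settings by construction; otherwise the cause was not tested.

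The replicate block gave 31 calls in marrow, 25 in the interaction and 0 in lung. It ended the calls of Rplp0 in marrow (adjusted p = 0.0575) and, relative to the family, of Rpl11, Rps16 and Rps23 (0.0889, 0.0524 and 0.0970). Deviations of AML and control libraries with the same number had correlations of -0.15, 0.04 and -0.09 in marrow and 0.18, -0.02 and -0.20 in lung. Between marrow and lung controls they were 0.04, 0.24 and -0.02. Marrow AML was not set against lung AML. With so few values, whether a number marks samples of the same mouse cannot be decided.

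The lung AML share of 0.559% became 0.779% without the 20 largest genes and 0.751% without marker genes. Median levels per length became 238 and 141 CPM per kb in marrow control and AML, and 26.2 and 30.2 in lung, with merged exon lengths, and 64.5 in lung AML with the longest coding sequence.

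Among the named members, signs turned only for ones not called. With library totals, marrow values were 0.28 for Rpl11, 0.10 for Rpl5 and 0.0140 for Rps28, and interaction values 0.26 for Rpl11, 0.0747 for Rpl27, 0.0618 for Rpl38, 0.0180 for Rps28 and 0.0368 for Rps3. Rpl11 in marrow was 0.000395 with DESeq2 size factors, 0.000436 with DESeq2, 0.0746 with limma-voom, 0.16 with 5 CPM and 0.11 with only the libraries compared, and 0.0413 in the interaction with 5 CPM. In lung, limma-voom gave 0.11 for Rpl27, 0.0399 for Rpl29, 0.19 for Rpl31, 0.0158 for Rpl41, 0.0681 for Rplp1 and 0.0586 for Rps29. With 1 library left out, Rpl11 ran from -0.27 to 0.13 in marrow, from -0.52 to 0.13 in the interaction and from -0.17 to 0.48 in lung, and Rpl5 from -0.47 to 0.0113 in marrow. In lung, Rpl27 ran from -0.40 to 0.23, Rpl29 from -0.33 to 0.0760, Rpl31 from -0.36 to 0.31 and Rpl41 from -0.59 to 0.0759. Rplp1 ran from -0.40 to 0.10, Rplp2 from -0.19 to 0.39, Rps27a from -0.0539 to 0.71 and Rps29 from -0.60 to 0.26.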
